A study of Homo sapiens with 4 samples.

Results

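The promoters examined here were those of isolated long non-coding RNA (lncRNA) genes, that is, lncRNA genes of GENCODE release 44 whose 5′ end lay more than 5 kb from every annotated transcription start site (TSS) of a protein-coding gene. The promoter was taken as the window of 1 kb to each side of the 5′ end, and 12527 of 62663 gene 5′ ends on chromosomes 1 to 22, X and Y met the rule (12527 of 18866 lncRNA genes). They were compared with 20033 protein-coding 5′ ends, with the 14094 of these that lay more than 5 kb from the TSS of any other protein-coding gene, and with the other 6339 lncRNA 5′ ends. Members are not independent of each other: 1156 of them had a window overlapping that of another member, which left 11929 separate clusters.

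The histone variant H3.3 was immunoprecipitated from human lung fibroblasts, labelled MRC5 and wild type in both groups and given in the study's methods as MRC5_VA, a fetal lung line immortalized with SV40. Cells were untreated (no UV) or were collected 3 h after 10 J/m2 of UV-C, and the labels name no other agent. DNA of the replicates was pooled, so 1 H3.3 library stood for each condition; differences between them rest on 1 library each and were not tested, and the intervals given below cover counting error only. The deposited lists held 102924 peaks without UV and 89709 after UV on the chromosomes used. They carry no read numbers, so the depth is unknown, and they hold no expression values against which the labelled cell type could be checked.

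H3.3 replaces canonical H3 outside DNA replication. It is deposited by the HIRA complex at promoters, enhancers and transcribed genes and by ATRX and DAXX at repeats and heterochromatin, and it marks sites where nucleosomes turn over quickly. UV-C creates pyrimidine dimers that stall RNA polymerase II. Protein-coding promoters mostly lie in CpG islands, whereas promoters of intergenic lncRNA genes are more often poor in CpG, are used by fewer cell types and share properties with enhancers.

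A window was called occupied when at least 1 bp of it was covered by a peak interval of the library. The sequences around the UV summits of a few named members are given as examples of peaks gained after UV and of peaks present in both libraries. They do not represent all such peaks, since every stretch printed lies off the repeated sequence defined below. Among members, 27.6% of gained summits and 40.0% of UV summits in windows occupied in both libraries lay on such sequence. Each stretch below is 200 bases of hg38 centred on the summit, written 5′ to 3′ on the strand of the gene, with CpG dinucleotides in capitals. The first pair belongs to the members with the 2 strongest gained peaks, ENSG00000291186 (chr11:71787565-71787764, plus strand, 24 CpG) and ENSG00000263280 (chr16:2868251-2868450, minus strand, 15 CpG), and the next to *MALAT1* (chr11:65498267-65498466, plus strand, 11 CpG) and *NORAD* (chr20:36050681-36050880, minus strand, 15 CpG), 2 further members with a gained peak.

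ENSG00000291186: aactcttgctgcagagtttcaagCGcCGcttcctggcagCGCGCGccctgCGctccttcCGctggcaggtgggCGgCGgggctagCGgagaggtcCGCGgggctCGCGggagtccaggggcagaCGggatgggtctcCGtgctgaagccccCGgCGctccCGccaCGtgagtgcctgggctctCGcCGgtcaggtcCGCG
ENSG00000263280: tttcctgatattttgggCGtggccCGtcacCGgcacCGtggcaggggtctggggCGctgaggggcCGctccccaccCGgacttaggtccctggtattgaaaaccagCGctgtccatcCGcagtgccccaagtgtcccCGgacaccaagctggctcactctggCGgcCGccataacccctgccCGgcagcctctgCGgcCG
MALAT1: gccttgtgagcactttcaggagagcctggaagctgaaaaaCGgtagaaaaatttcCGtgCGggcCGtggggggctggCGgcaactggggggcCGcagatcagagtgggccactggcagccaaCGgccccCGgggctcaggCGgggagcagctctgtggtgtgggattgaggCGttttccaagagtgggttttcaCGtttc
NORAD: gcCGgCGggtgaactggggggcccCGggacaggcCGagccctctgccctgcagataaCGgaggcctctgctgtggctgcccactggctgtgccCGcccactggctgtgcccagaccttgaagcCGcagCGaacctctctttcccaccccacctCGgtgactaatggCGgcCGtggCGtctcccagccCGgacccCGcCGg

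The remaining stretches belong to members occupied in both libraries, *NEAT1* (chr11:65423318-65423517, plus strand, 11 CpG) and *MIR17HG* (chr13:91347760-91347959, plus strand, 29 CpG).

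NEAT1: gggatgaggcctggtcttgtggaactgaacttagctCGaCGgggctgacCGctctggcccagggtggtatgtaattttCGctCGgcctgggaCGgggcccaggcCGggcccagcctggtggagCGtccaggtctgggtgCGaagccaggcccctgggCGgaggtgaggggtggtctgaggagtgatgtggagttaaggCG
MIR17HG: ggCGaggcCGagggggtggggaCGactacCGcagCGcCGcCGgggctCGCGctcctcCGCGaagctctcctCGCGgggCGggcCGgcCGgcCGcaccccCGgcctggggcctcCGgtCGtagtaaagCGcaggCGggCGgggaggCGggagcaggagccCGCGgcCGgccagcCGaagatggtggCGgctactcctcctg

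Few isolated lncRNA promoters held H3.3 peaks, and their number hardly differed between the libraries. Without UV, 1231 of 12527 windows were occupied (9.83%, exact Clopper-Pearson 95% interval 9.31 to 10.4%), against 20.9% of all gene 5′ ends. After UV, 1221 were occupied (9.75%, 9.23 to 10.3%), against 23.8% of all gene 5′ ends. At protein-coding 5′ ends the shares were 37.0% (36.4 to 37.7%) without UV and 44.8% (44.1 to 45.5%) after UV. The difference, isolated lncRNA minus protein-coding, was -27.2 percentage points without UV (Newcombe 95% interval -28.1 to -26.4) and -35.02 after UV (-35.9 to -34.2). Isolated protein-coding 5′ ends, chosen by the same distance, were occupied in 33.0% without UV and 40.0% after UV, which left differences of -23.2 (-24.1 to -22.3) and -30.3 (-31.2 to -29.3) percentage points. The lncRNA 5′ ends excluded by the rule, near protein-coding TSSs, were occupied in 38.3% and 43.4%.

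The near-equal totals hid turnover of windows. Of the 1231 members occupied without UV, 909 held a peak after UV as well, a persistence of 73.8% (71.3 to 76.3%), while 87.2% of all occupied gene 5′ ends and 92.7% (92.1 to 93.3%) of protein-coding ones did so. The difference from protein-coding 5′ ends was -18.8 percentage points (-21.4 to -16.4). Of the 11296 members unoccupied without UV, 312 gained a peak, which is 2.76% (2.47 to 3.08%) against 7.07% of all unoccupied gene 5′ ends and 16.6% (15.9 to 17.2%) of protein-coding ones, a difference of -13.8 percentage points (-14.5 to -13.1). As a share of all 12527 members, 2.49% were gained, below the 5.59% over all genes. The 322 lost windows were 2.57% of members, close to the 2.68% over all genes and the 2.71% at protein-coding 5′ ends. Isolated lncRNA promoters were thus below the background in peaks and in gains, while their losses per gene were close to it (2.30 to 2.86% of members). Gains and losses were in near balance, at 0.97 gains per loss, with gains making up 49.2% (45.3 to 53.2%) of changed windows. Protein-coding 5′ ends had 2090 gains and 543 losses (3.85 gains per loss), of which gains were 79.4% (77.8 to 80.9%). Isolated protein-coding 5′ ends had 4.003 gains per loss, and the other lncRNA 5′ ends 2.42. The balance at members moved with the definition of window, peak and member, from 0.63 gains per loss when members also had to lie more than 5 kb from the TSS of any other gene to 1.52 with peaks of −log10 q of at least 5 (q is the false discovery rate that the authors' peak caller gave a summit within its library, so a higher −log10 q is a stronger peak). In the 6 settings of window or peak that could be applied to both groups it was 0.87 to 1.52 at members and 2.81 to 5.99 at protein-coding 5′ ends, lower at members in 6 of 6.

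**Figure D1:**
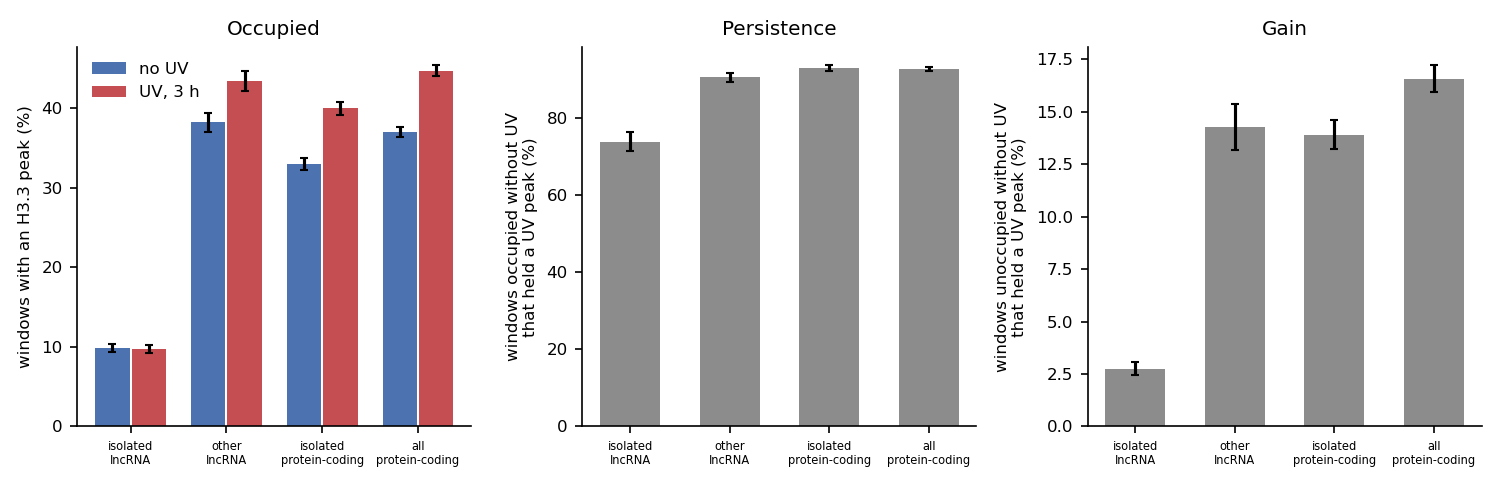
Share of windows (%) with an H3.3 peak in each library, share of windows occupied without UV that held a UV peak, and share of unoccupied windows that held one, for 4 groups of 5′ ends. Bars are shares and error bars exact 95% intervals for counting error. Isolated lncRNA promoters had 9.83% and 9.75% of windows occupied, a persistence of 73.8% and gains in 2.76%, all below the other groups.

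The balance changed when peaks on repeated sequence were left out. A summit was taken to lie on a repeated word when the 200 bases around it held at least 1 word of 20 bases found at 1000 or more places of the genome (hg38, both strands). No repeat annotation was used, and the family of these repeats was not determined. None of the 6 stretches printed above held such a word. Such summits made up 64.6% of the whole list without UV and 58.4% of the list after UV. Among members they were 57.5% (51.9 to 62.9%) of lost summits, 44.1% (40.9 to 47.4%) of summits without UV in windows occupied in both libraries and 27.6% (22.7 to 32.9%) of gained summits. At protein-coding 5′ ends the corresponding shares were 47.0%, 15.8% and 12.2%. Over all gene 5′ ends they were 61.5%, 23.4% and 20.1%, so the share among lost summits was not higher at members than over all genes. By comparison, the 200 bases around the 5′ end itself held such a word in 14.1% of all members. When all such peaks were left out of both lists, a choice made after seeing the data, 747 members (5.96%) were occupied without UV and 844 (6.74%) after UV, against 16.2% and 20.02% of all gene 5′ ends. There were then 284 gains (2.27% of members, 5.33% of all genes) and 187 losses (1.49%, 1.51% of all genes), or 1.52 gains per loss, and gains were 60.3% (55.7 to 64.7%) of changed windows. Protein-coding 5′ ends had 5.20 gains per loss under the same rule. All gene 5′ ends had 3.54, against 2.09 with all peaks, so the ratio was also higher there without these peaks. Persistence at members was 74.97% (71.7 to 78.0%), against 90.7% of all genes, and the difference from protein-coding 5′ ends was -18.6 percentage points (-21.9 to -15.6), much as with all peaks. The differences in occupancy without these peaks were -26.3 percentage points before and -34.2 after UV, and that in gains among unoccupied windows was -13.5, all close to the values with all peaks. Repeated words thus moved with the number of losses and with the ratio of gains to losses, whereas the lower occupancy, lower persistence and rarer gains were present without them.

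Within their lists, the peaks at isolated lncRNA promoters were weaker than those at protein-coding 5′ ends, and weaker peaks persisted less often. The list without UV was divided by −log10 q into 4 classes of equal size, and each occupied window was placed by its strongest peak. Of the occupied members, 40.0% fell in the strongest class, compared with 61.2% of occupied protein-coding windows. Persistence of members was 42.5% (35.7 to 49.6%) in the weakest class, 57.1% and 72.9% in the middle classes and 95.7% (93.5 to 97.3%) in the strongest. Protein-coding windows had 67.5% (63.6 to 71.3%), 79.0%, 90.5% and 99.1% (98.7 to 99.3%). Within 10 classes of −log10 q the mean difference in persistence was -14.0 percentage points, with members lower in 10 of 10. Read from the UV list, the order was the other one for weak peaks. Of the windows occupied after UV, 74.4% of members (71.9 to 76.9%) and 76.7% of protein-coding windows (75.8 to 77.6%) were also occupied without UV. By class of the UV peak, from weakest to strongest, these shares were 58.3% (50.6 to 65.7%), 60.7%, 69.7% and 89.3% (86.3 to 91.9%) for members and 35.5% (31.7 to 39.4%), 45.3%, 58.6% and 91.6% (90.9 to 92.3%) for protein-coding windows. Weak member peaks were therefore shared less often than weak protein-coding peaks when the list without UV was the start, and more often when the UV list was. Of the 21 members in the strongest class that held no UV peak, 19 had a summit on a repeated word. In that class 214 of 492 members had such a summit, and 195 of the 214 (91.1%) also held a UV peak. At protein-coding windows of the class, 20 of the 43 without a UV peak had such a summit.

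**Figure D2:**
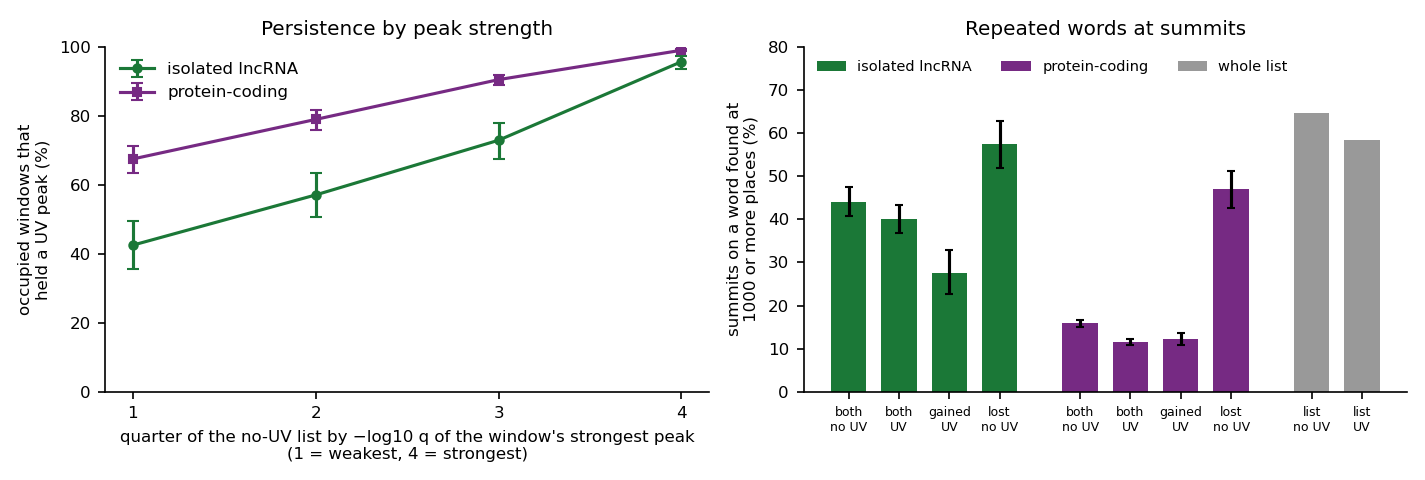
Left, persistence (%) by strength class of the no-UV peak (1 weakest, 4 strongest; points are shares, error bars exact 95% intervals), for isolated lncRNA and protein-coding windows. Right, share of summits (%) with a word of 20 bases found at 1000 or more genome places, by state and library, beside the same share over each whole list. Persistence of isolated lncRNA windows went from 42.5% to 95.7% across the classes, and 57.5% of their lost summits lay on repeated words against 27.6% of gained ones.

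The median −log10 q of the strongest peak in windows occupied in both libraries was 9.08 without UV and 11.3 after it. It was 5.68 for gained peaks (range 1.37 to 27.5) and 3.75 for lost peaks (range 1.31 to 36.9). These values are set within a library, so each peak is also given by its percentile in its own list. The lists differ in length, in median −log10 q (4.99 without UV and 5.91 after UV) and in the share on repeated words, so a percentile that differs between them does not show that H3.3 changed at a gene. Of the 909 members occupied in both libraries, 456 (50.2%) had a higher percentile after UV, whereas 64.7% of protein-coding windows did. In 755 of the 909 (83.1%) the strongest peaks of the libraries overlapped, and the median distance between their summits was 55 bp. Many changed windows lay near a peak of the other library. Within 5 kb of the 5′ end, 142 of 322 lost members had a UV peak and 143 of 312 gained members had a peak without UV. In 16 lost and 20 gained members the peak itself overlapped one of the other list that lay outside the window.

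Peaks gathered at the 5′ ends of isolated lncRNA genes, but less sharply than at protein-coding ones. Without UV the densest 100-bp bin lay 400 to 500 bp downstream of the 5′ end, with 8.14 summits per 1000 ends, 2.20 times the density toward 5 kb. After UV it lay 200 to 300 bp downstream, with 7.82 per 1000 ends, 2.56 times the flank. Protein-coding ends had their densest bin 200 to 300 bp downstream in both libraries, with 55.0 per 1000 ends without UV (5.77 times the flank) and 73.7 after UV (7.82 times). Strongest summits of occupied members lay downstream of the 5′ end in 50.8% without UV and 52.2% after UV, while at protein-coding ends they did so in 66.5% and 69.5%. Intervals covered the 5′ end itself in 32.5% of occupied members without UV and 35.5% after UV (38.6% and 51.7% at protein-coding ends).

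**Figure D3:**
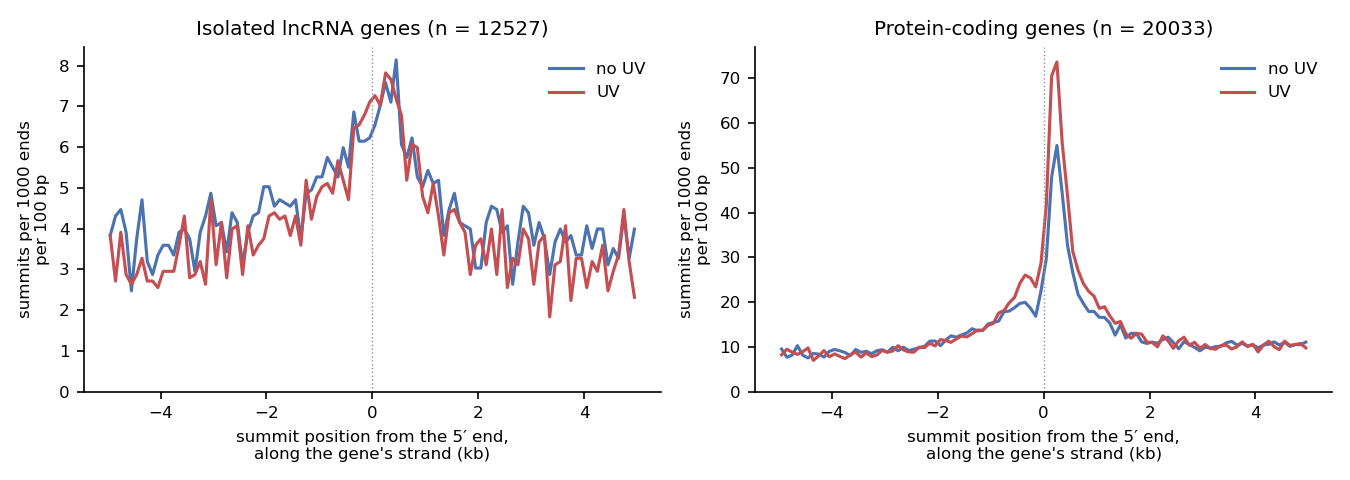
Summits per 1000 gene 5′ ends in bins of 100 bp (vertical axes differ between panels) against position from the 5′ end along the strand of the gene (kb), without UV and after UV. Isolated lncRNA genes reached 8.14 (no UV) and 7.82 (UV) summits per 1000 ends, with lines that run together, and protein-coding genes 55.0 and 73.7.

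Base composition differed between the members that gained and those that lost, as it did over all genes. The median GC content of the 2 kb window was 44.5% over all members and 55.0% at protein-coding 5′ ends. By state it was 51.2% in members occupied in both libraries, 52.9% in gained, 43.8% in lost and 43.8% in members with neither peak. The ratio of observed to expected CpG had medians of 0.36, 0.39, 0.24 and 0.23 in the same order, and 0.61 over protein-coding windows. Members were divided into 10 classes of equal size by GC content. In the lowest class 35 of 1266 windows (2.76%) were occupied without UV and 20 (1.58%) after UV, with 7 gains and 22 losses. In the highest class, above 56.4% GC, 272 of 1249 (21.8%) were occupied without UV and 356 (28.5%) after UV, with 101 gains and 17 losses, or 5.94 gains per loss. Losses outnumbered gains in the 8 classes of lower GC content and gains outnumbered losses in the 2 highest. The near balance over all members was the sum of these opposite tendencies. Without the peaks on repeated words, gains outnumbered losses in the 5 highest classes, and the ratio was 0.25 in the lowest class and 7.33 in the highest.

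Protein-coding windows in the same GC ranges followed a similar course. In the lowest range 2.91% were occupied without UV and 1.16% after UV, and in the highest 51.9% and 63.5%, with 8.27 gains per loss. Persistence in the highest range was 93.8% (90.2 to 96.3%) for members and 96.9% (96.4 to 97.4%) for protein-coding windows. Averaged within the 10 ranges and weighted by members, the difference between members and protein-coding windows was -8.99 percentage points in occupancy without UV, -11.9 in occupancy after UV, -3.90 in persistence and -5.67 in gains among unoccupied windows, in place of -27.2, -35.02, -18.8 and -13.8. Members were lower in 8, 8, 7 and 9 of the 10 ranges. Within ranges of the CpG ratio, chosen after seeing the data, the 4 differences were -5.75, -7.79, -5.32 and -3.56. In the highest GC range the isolated lncRNA promoters were occupied in 28.5% after UV, against 63.5% of protein-coding windows.

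**Figure D4:**
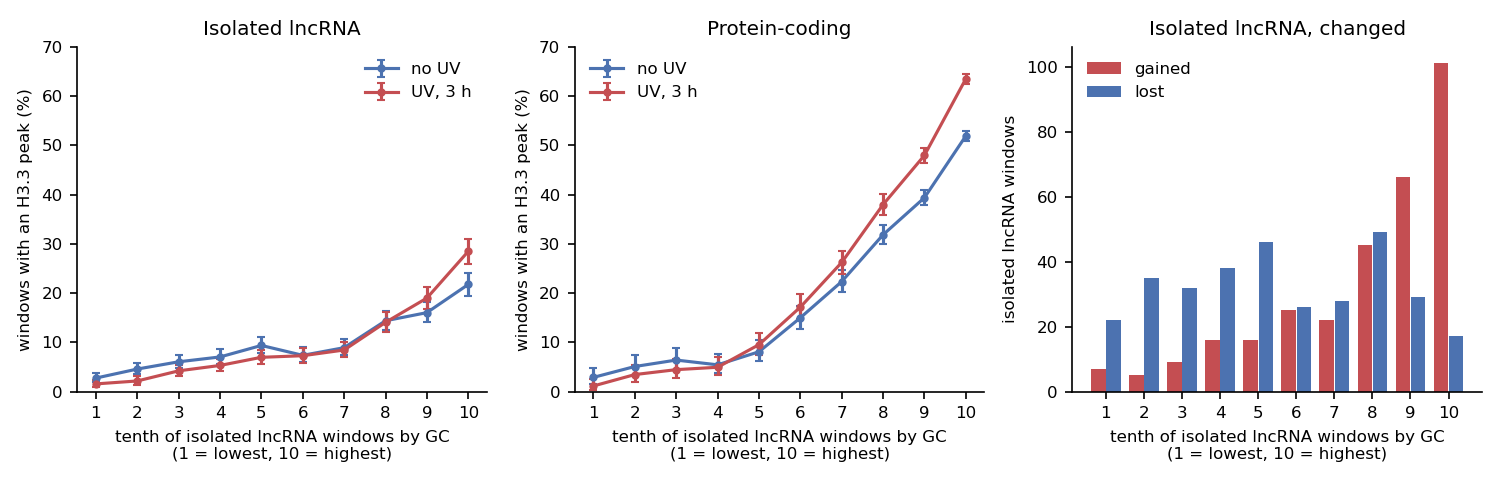
Share of windows (%) occupied by H3.3 in the no-UV and the UV list in 10 GC classes (1 lowest, 10 highest; class limits set on the isolated lncRNA windows) for isolated lncRNA and protein-coding 5′ ends, and the number of isolated lncRNA windows gained and lost in each class. Points are shares with exact 95% intervals. Isolated lncRNA windows changed from 2.76% to 1.58% in class 1 and from 21.8% to 28.5% in class 10, where 101 were gained and 17 lost.

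Short motifs in the windows followed the same division. The motif GGGCGG (the GC box bound by SP1, searched on both strands) was present in 67.3% of members occupied in both libraries, 68.6% of gained, 37.9% of lost and 33.1% of members with neither peak. It was in 52.0% of all gene windows. The motif CCGGAAG, a core of ETS-family sites, was in 19.8%, 21.2%, 9.32% and 8.89% in the same order, and in 16.5% of all gene windows. TATAAA was the opposite, with 57.9%, 52.9%, 70.2% and 74.7%, and 65.7% of all gene windows. CCAAT was common everywhere (86.5 to 93.9%; 91.1% of all gene windows). The motif TGANTCA, bound by AP-1, the Fos and Jun dimer that is active in fibroblasts and at enhancers, was in 50.9%, 48.1%, 56.5% and 48.3%, and in 40.9% of all gene windows. The shares of these motifs also moved with GC content, so windows with a peak in either library were set beside windows without one in 3 classes of members by GC content. GGGCGG was present in 22.5% (17.2 to 28.5%) of windows with a peak and 11.03% (10.1 to 12.05%) without in the lowest class, in 34.8% (30.2 to 39.7%) and 28.1% (26.7 to 29.6%) in the middle class, and in 82.7% (80.1 to 85.1%) and 65.7% (64.1 to 67.4%) in the highest. CCGGAAG was in 25.7% (22.9 to 28.7%) and 17.3% (16.0 to 18.6%) in the highest class, with intervals that overlapped in the lower ones. TGANTCA was in 63.9% (57.3 to 70.1%) and 53.5% (51.9 to 55.0%) in the lowest class, in 59.6% (54.7 to 64.5%) and 50.9% (49.3 to 52.5%) in the middle class, and in 44.9% (41.7 to 48.2%) and 38.9% (37.2 to 40.6%) in the highest. GGGCGG and TGANTCA were thus each more frequent in windows with a peak in 3 of 3 GC classes, and TATAAA in none of them. GC content still varied within these classes. A match to a motif describes the letters of the window and does not show that a factor binds there.

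Occupancy decreased with distance from protein-coding genes. Median GC content also decreased, from 46.5% at 5 to 10 kb to 41.9% beyond 100 kb, and its part in the occupancy was not tested. Without UV it was 17.4% of 1594 members 5 to 10 kb from the nearest protein-coding TSS, 13.5% at 10 to 20 kb, 11.5% at 20 to 50 kb, 9.30% at 50 to 100 kb and 4.39% of the 4169 members beyond 100 kb. Gains per loss lay between 0.73 (beyond 100 kb) and 1.19 (50 to 100 kb) without a steady order. Around the limit of the rule, lncRNA 5′ ends 4 to 5 kb from a protein-coding TSS (404, left out) were occupied in 17.1% without UV and 16.6% after UV, and those 5 to 6 kb away (384, kept) in 20.3% and 21.4%.

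The balance was also read by position relative to gene bodies. The 9427 members outside every protein-coding gene had 236 gains and 209 losses (53.03% gains, 48.3 to 57.7%). The 2687 members whose 5′ end lay in an intron had 59 gains and 96 losses (38.1% gains, 30.4 to 46.2%), and the 413 in an exon had 17 of each. Persistence was lowest, at 59.8% (49.6 to 69.4%), for the 883 members inside a protein-coding gene on the same strand, which had 19 gains and 41 losses. In such windows a peak of the host gene and a peak of the lncRNA gene cannot be told apart.

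By kind of gene, members known only by an Ensembl identifier (8969) and those named LINC (2113) resembled the whole, with 9.53% and 9.37% occupied without UV and 0.88 and 0.86 gains per loss, against 2.09 over all genes. Members named as antisense to another gene (646) had 26 gains and 16 losses, of which gains were 61.9% with an interval that includes balance (45.6 to 76.4%). Members with another symbol (618) had 12.1% occupied without UV, 15.0% after UV and 29 gains for 11 losses (72.5% gains, 56.1 to 85.4%). They include the characterised lncRNAs but also members named as pseudogenes, such as *GLUD1P3*, so this class overlaps the pseudogene class given next. The 751 members that are tagged as overlapping a pseudogene, or named as one, had 32 gains and 9 losses (78.0% gains, 62.4 to 89.4%) and a persistence of 89.8%, against 47.2% (43.1 to 51.3%) and 72.6% for the rest. Gains were 67.6% of changed windows over all genes, inside the intervals of these 3 classes. Their median GC content was 44.4% (antisense), 49.1% (other symbol) and 50.4% (pseudogene), against 44.1% for members with an identifier only and 44.2% for those without a pseudogene, and its part in the balance was not tested. Many pseudogene members have near-identical copies elsewhere, so reads may be shared between copies. Members with over 10 annotated transcripts (644) had 27 gains and 13 losses (67.5% gains, 50.9 to 81.4%). Those with 1 transcript (8204) had 195 and 235 (45.3% gains, 40.6 to 50.2%). The 67.6% over all genes lay near the former share. Of all windows in the 2 classes, 4.19% and 2.38% gained a peak, against 5.59% over all genes. Their median GC content was 46.2% and 43.8%, and its part was not tested. By chromosome, the share was higher after UV on 9 of 23 chromosomes (1 to 22 and X) for members and on 23 of 23 for protein-coding 5′ ends. Chromosome 16 had the largest excess of gains over losses (29 and 8) and chromosome 5 the largest excess of losses (9 and 23).

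Among 8 lncRNAs of the nucleus and chromatin, all of them isolated, 3 were occupied without UV (37.5%, 8.52 to 75.5%) and 5 after UV (62.5%, 24.5 to 91.5%). The corresponding shares of all gene 5′ ends were 20.9% and 23.8%, the former inside its interval and the latter just below it, and the intervals of the 2 libraries overlap. The difference between the libraries consists of *MALAT1* and *NORAD*. *NEAT1*, the scaffold RNA of paraspeckles (5′ end chr11:65422774), had a −log10 q of 27.2 without UV and 43.6 after UV, at percentiles 95.8 and 96.7 of the lists. *MALAT1*, an RNA of nuclear speckles transcribed from the neighbouring locus (chr11:65497640), had no peak in its window without UV and one of −log10 q 16.1 after UV (percentile 83.8), 727 bp downstream of the 5′ end. The call rested on the window, since a peak without UV lay 1303 bp from the 5′ end: with 2 kb to each side *MALAT1* was occupied in both libraries. *NORAD*, which binds PUMILIO proteins and is induced by DNA damage (chr20:36051018), had no peak without UV and one of −log10 q 6.52 after UV, 237 bp downstream, with the nearest peak of the list without UV 3716 bp away. *NORAD* kept this state under all 7 alternative windows, thresholds and peak sets tried. *PVT1* had −log10 q values of 8.52 without UV and 8.72 after UV, and *CYTOR* 6.79 and 11.9. The central 100 bases of the *CYTOR* summit occur at 2 places of the genome, so its reads may come from either. The imprinted *MEG3*, *H19* and *KCNQ1OT1* had no peak in either library, and the nearest peaks without UV lay 86174, 44459 and 41312 bp from their 5′ ends.

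The list of lncRNAs of the p53 and DNA damage response had 5 isolated members of 8 listed: *NEAT1*, *NORAD* and *PVT1*, described above, and *PURPL* and *MIR34AHG*, the host of miR-34a, both of which are p53 targets and had no peak in either library. The large T antigen of SV40, the virus used to immortalize these fibroblasts, binds and inactivates p53. The peak lists do not measure p53 activity, and its part in the state of these 5 windows, with or without a peak, was not tested. Of 7 fibroblast and mesenchyme lncRNAs, 3 were occupied in both libraries (42.9%, 9.90 to 81.6%, which includes the share of all gene 5′ ends) and 4 (*MIR100HG*, *LINC00968*, *CASC15* and *LINC00511*) in neither. *MIR31HG* had −log10 q values of 6.80 without UV (percentile 65.9) and 12.4 after UV (77.4). *MIR503HG*, which hosts miR-503, had 5.51 (percentile 54.0) and 18.5 (86.6), the peak after UV being 175 bp downstream of the 5′ end. *LUCAT1*, a stress-induced lncRNA, had 9.76 (78.7) and 11.5 (75.3), but its summits lay on repeated words in both libraries, and without such peaks it was occupied in neither.

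Of 67 isolated host genes of miRNAs, 18 (26.9%, 16.8 to 39.1%) were occupied in each library and 16 in both. The interval lies above the share over all members and includes the 20.9% without UV and 23.8% after UV of all gene 5′ ends. The median GC content of these windows was 49.9%, above the 44.5% of all members, and its part in the occupancy was not tested. The highest value after UV was that of *MIR23AHG*, host of the miR-23a cluster (−log10 q 29.5 without UV and 69.6 after UV, percentiles 96.5 and 98.9). *MIR17HG*, which hosts the growth-promoting miR-17 cluster, had 7.496 without UV (percentile 69.2) and 58.0 after UV (98.3), and the strongest summit lay 873 bp downstream without UV and 174 bp downstream after UV. *MIR210HG*, host of the hypoxia-induced miR-210, had 49.9 (99.1) and 52.98 (97.9), and *MIRLET7IHG* 45.8 (98.8) and 54.6 (98.0). *MIR155HG*, host of an miRNA of inflammation, had 9.08 (76.0) and 19.9 (87.9). *MIR762HG* had percentiles of 25.4 (−log10 q 3.23) and 89.8 (22.5), and *MIR181A2HG*, in an intron of *NR6A1*, 70.1 (7.55) and 3.15 (1.68). *MIR1915HG* (5.60) and *MIR1-1HG* (4.55) were gained, and *MIR583HG* (2.81) and *MIR130AHG* (1.32) were lost, all with weak peaks, that of *MIR130AHG* on a repeated word.

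Host genes of snoRNAs, which guide the modification of ribosomal RNA, had 16 isolated members of 31 listed, with 6 occupied without UV (37.5%, 15.2 to 64.6%) and 8 after UV (50%, 24.7 to 75.3%), against 20.9% and 23.8% of all gene 5′ ends. *SNHG11* had a gained peak of −log10 q 13.3 and *SNHG17*, its neighbour on chromosome 20, one of 4.21, and *SNHG21* one of 3.33. The nearest peaks without UV lay 6022, 1923 and 40576 bp from their 5′ ends, so the call at *SNHG17* depended on the width of the window. *SNHG12* was lost, with a peak of 7.78 without UV on a repeated word and a UV peak 1250 bp from the 5′ end. *DANCR* had 10.5 and 14.0, *SNHG7* 14.4 and 29.02, and *SNHG32* 23.8 and 25.5, the last on repeated words in both libraries. *SNHG15* had 4.99 (percentile 50.1) without UV and 2.83 (13.7) after UV, and *SNHG25* 4.65 (46.6) and 2.20 (6.66). The 3 gains in 10 unoccupied windows correspond to 30.0% (6.67 to 65.2%), against 7.07% of all unoccupied gene 5′ ends, and with so few members the intervals are wide.

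**Figure D5:**
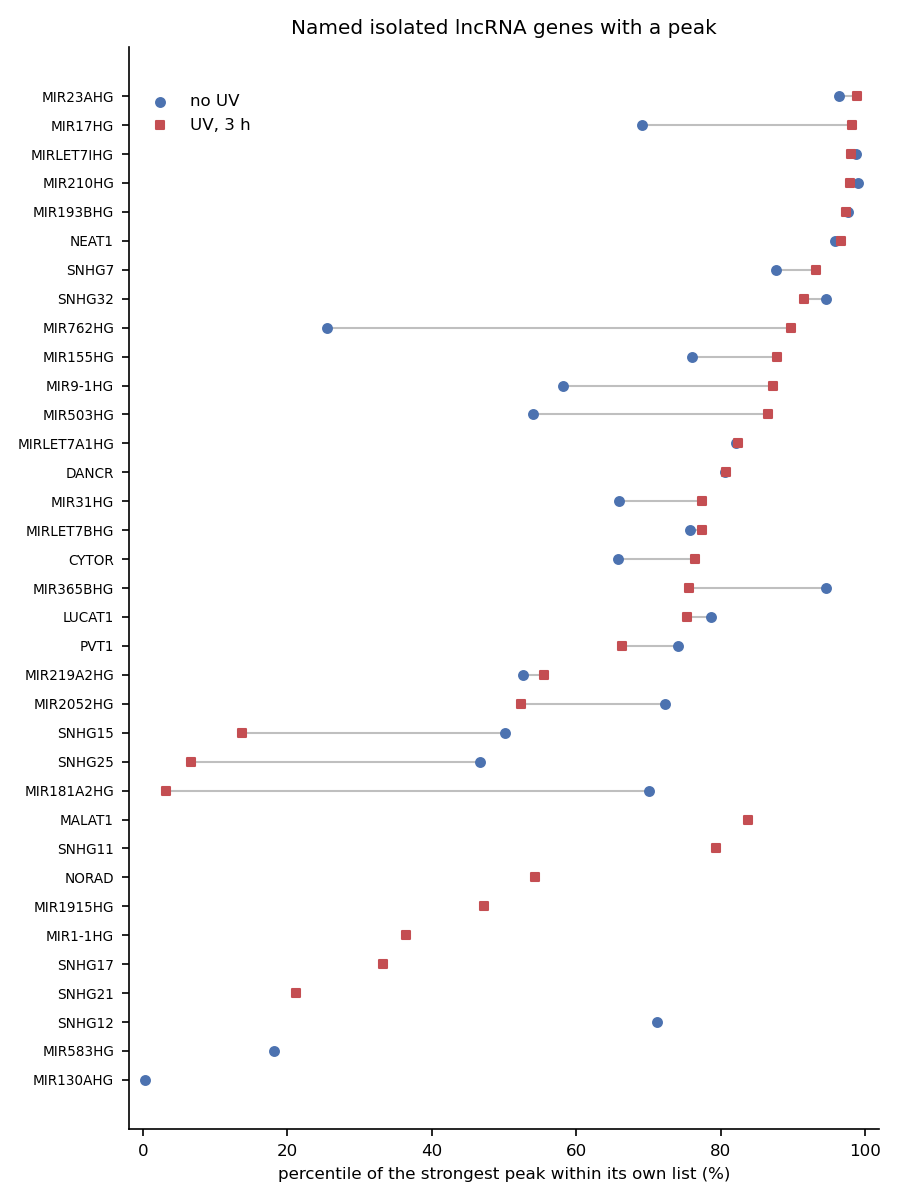
Percentile of the strongest window peak within its own list (%), without UV (circles) and after UV (squares), for the 35 isolated lncRNA genes of the 5 lists that held a peak in either library. A line joins the libraries where both held a peak, and a single symbol is a gained (square) or lost (circle) peak. *MIR17HG* lay at 69.2 and 98.3 and *MIR762HG* at 25.4 and 89.8, and the 2 symbols of *MIR210HG*, *NEAT1* and *DANCR* lie close together.

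The strongest gained and lost peaks differed in where they lay. The 5 strongest gained peaks were those of ENSG00000291186 (−log10 q 27.5), ENSG00000263280 (26.7), ENSG00000290946 (26.2) and the divergent pair ENSG00000290940 and ENSG00000286895, which share a peak (22.8). Their summits lay 185, -100, 163, 151 and -350 bp from the 5′ ends (downstream positive), in 200 bases with 15 to 24 CpG and 67.5 to 76.0% GC, and no summit was on a repeated word. Copies were still present: the commonest 20-base word of the 200 bases occurred at 12 places at ENSG00000290946 and at 11 at ENSG00000291186. It occurred at 11 places at the divergent pair and at 2 at ENSG00000263280. ENSG00000291186, ENSG00000290940 and ENSG00000290946 belong to the pseudogene class. The central 100 bases at ENSG00000290946 occur at 3 places of the genome. Reads at summits with such copies may be shared between copies. All 5 kept their state under the 7 alternatives. The 5 strongest lost peaks were those of ENSG00000224635 (36.9), *GLUD1P3* (26.1), ENSG00000226548 (23.9), ENSG00000264270 (19.5) and ENSG00000240355 (15.6). Each was reached only at the edge of the window, 677 to 991 bp from the 5′ end, with the strongest summit outside the window and on a repeated word. The summits lay at -2611, -1201, -4130, 1961 and -1088 bp in that order. None was counted when the summit had to lie in the window or when the window was 500 bp to each side. With 2 kb to each side ENSG00000224635, *GLUD1P3* and ENSG00000264270 were occupied in both libraries. All 5 stayed lost with both thresholds of −log10 q and with equal numbers of peaks. When peaks on repeated words were left out, ENSG00000226548, *GLUD1P3* and ENSG00000264270 stayed lost through other summits of the list, and the other 2 were occupied in neither library. The summits of the strongest gained peaks, by contrast, lay within 350 bp of the 5′ end.

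The strongest peaks shared by both libraries were those of ENSG00000291175 (−log10 q 87.1 without UV and 160.2 after UV), ENSG00000267446 (102.9 and 76.1), *LINC02989* (74.6 and 84.4), *LINC00886* (72.7 and 94.5) and ENSG00000261334 (71.2 and 153.2), all at percentile 99.1 or above in both lists. The summits of ENSG00000267446 and *LINC02989* were on repeated words, at -956 and -1960 bp from the 5′ end after UV. Those of ENSG00000291175, *LINC00886* and ENSG00000261334 were not, and lay 122 bp upstream, 444 bp downstream and 76 bp downstream.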

How the data were processed

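H3.3 was immunoprecipitated (Abcam ab176840) from MRC5_VA cells without UV and after UV-C, with 1 pooled library per condition; the input libraries were not analysed here. Groups came from the sample labels. The authors trimmed reads (Trimmomatic), aligned them to hg38 (BWA 0.7.12 in the submitters' notes), removed duplicates (Biobambam2) and called peaks with MACS (1.4.2 in those notes, though some intervals hold several summits, which that version does not write; the control and threshold for H3.3 peaks are not given in the sources used here). The deposited lists hold 1 line per summit with a score, a −log10 p, a −log10 q and a fold enrichment, which is a ratio to local background, all set within a library, so that a shallower library yields fewer peaks. Only −log10 q and its percentile within the list are reported.

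5′ ends and TSSs were those of GENCODE release 44 (hg38). Windows of 1 kb to each side were called occupied by an overlap of at least 1 bp. The strongest peak of a window was the overlapping peak with the highest −log10 q, whose summit may lie outside the window. Shares have exact Clopper-Pearson 95% intervals, differences of shares Newcombe 95% intervals. GC content, CpG ratios, motifs and the places of 20-base words on both strands of chromosomes 1 to 22, X and Y were counted in hg38. Sequences at lost peaks are not reported here. Members, lists and rules were chosen with earlier results of these data known. Named genes were the 5 members gained, lost and occupied in both libraries with the highest −log10 q (for the last, the lower of both), and the members of 5 fixed lists. *CARMN*, *LINC-PINT* and *PANDAR* were not isolated and *TP53COR1* was not in the annotation. The repeated-word, CpG and strength classes and the pseudogene split were added after the data were seen. Overlap and interval functions were tested on simulated peaks. Scripts ran in Python 3.11.15 (scipy 1.17.1, numpy 2.4.6, matplotlib 3.10.9, pandas 2.3.3).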

Additional observations from a re-analysis of the deposited data

How the results depend on the processing

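The cause of the shifts below was not tested, and no alternative turned the sign of a difference from protein-coding 5′ ends. Values outside the interval of the reported one are given here in the order occupied without UV, occupied after UV (both % of members), and their differences from protein-coding 5′ ends (percentage points). They were 7.42, 7.48, -23.7 and -32.5 with a window of 500 bp to each side, 13.0, 12.6, -29.9 and -36.6 with 2 kb, 10.8, 10.7, -26.2 and -34.1 with isolation by more than 2 kb, 8.73, 8.60, -28.3 and -36.2 by more than 10 kb, 5.98, 5.82, -31.1 and -38.9 by more than 50 kb, and 8.64, 7.65, -28.4 and -37.1 with isolation from every other gene. For peaks of −log10 q 3 or more they were 8.38, 8.90, -26.2 and -33.9, for 5 or more 6.26, 7.06, -23.9 and -32.1, with the summit inside the window 8.72, 8.72, -26.1 and -34.1, and with any TSS of the gene 11.5, 11.3, -36.5 and -42.7. Without peaks on repeated words the first 3 were 5.96, 6.74 and -26.3. Occupancy without UV was 9.03% with equal numbers of peaks, and after UV it was 9.10% with 1 member per cluster of windows and 10.5% for members with a transcript of support level 1 or 2. The differences against isolated protein-coding 5′ ends were -23.2 and -30.3, within GC classes -8.99 and -11.9, and within CpG classes -5.75 and -7.79.

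Persistence was 68.9% with isolation from every other gene, 77.0% with equal numbers of peaks, 78.9% with support level 1 or 2, 76.3% outside protein-coding gene bodies, and 80.9% when only the changed peak needed a −log10 q of 3 or more. Its difference from protein-coding 5′ ends was -23.8 with isolation from every other gene, -13.8 with support level 1 or 2, -13.9 with the threshold on the changed peak only, -16.4 outside gene bodies, -3.90, -5.32 and -14.0 within classes of GC, CpG and peak strength. Gains were 91 (isolation by more than 50 kb), 153 (from every other gene) and 99 (support level), and losses 101 (50 kb), 194 (−log10 q 5 or more), 187 (without repeated words), 77 (support level) and 209 (outside gene bodies). Gains per loss were 0.63 with isolation from every other gene, 1.25 and 1.52 for −log10 q from 3 and from 5, 1.23 with the threshold on the changed peak only, 1.35 with equal numbers of peaks, 1.29 with support level 1 or 2 and 1.52 without repeated words. The difference in gains among unoccupied windows was -15.0 (50 kb), -14.7 (every other gene), -13.1 (−log10 q 5 or more), -12.1 (changed peak only), -14.6 (equal numbers), -14.8 (any TSS), -11.1 (isolated protein-coding), -5.67 (GC) and -3.56 (CpG).

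No replicate was left out, since each condition had 1 library. No paired analysis was possible because the libraries carry no replicate numbers. The soft-masked share of the windows was not computed, as the genome copy used is in capitals throughout. Depth is unknown, so a window without a listed peak was not shown to lack H3.3.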
